A study of Mus musculus with 45 samples.

Results

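Dppa2, Dppa3, Dppa4 and Dppa5a, the developmental pluripotency associated (Dppa) genes, were followed across lines of mouse induced pluripotent stem cells (iPSCs), which are somatic cells returned to an embryonic stem cell-like state. All probe sets annotated to these 4 symbols were taken. They numbered 5 of 22626 in each of 2 array tables: 1429654_at and 1453223_s_at for Dppa2, 1429597_at for Dppa4, 1424295_at for Dppa3 and 1416552_at for Dppa5a. The 4 genes stood among 11807 named genes in one table and 12393 in the other.

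The lines were made with a secondary system, in which the starting cells already carry the reprogramming factors, and each of the 15 groups held 3 clones. From mouse 1 came SMP lines, of skeletal muscle precursor origin, at passage 6, and Gra lines, of granulocyte origin, at passages 16 and 4. From mouse 2 came TTF (tail tip fibroblast), B cell, T cell and Gra lines, each at passages 4, 10 and 16. Strain, sex and age of the mice are not given in the labels used here. Irradiated embryonic fibroblasts served as feeders in medium containing serum and LIF, and were depleted by letting them settle on plastic before RNA extraction, so some feeder RNA may be present. The comparisons ask whether the cell of origin marks the expression of the lines and what continued passage does to it. Every comparison rests on clones of 1 mouse on each side, so its p-values measure how clones vary and say nothing of variation among animals.

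The values are log2 intensities on arrays of 2 platforms. The 33 arrays of passages 4, 6 and 16 and the 12 arrays of passage 10 were normalized separately, and no value of one table is set against a value of the other. Differences were tested with limma over all 22626 probe sets of a table, and a probe set counts as called where its Benjamini-Hochberg adjusted p is under 0.05. Errors of differences are standard errors (SE), and each group has n = 3. The 5 pluripotency markers Pou5f1, Nanog, Sox2, Zfp42 and Esrrb averaged 10.48 to 11.65 over the arrays of the first table and 12.48 to 12.71 over those of passage 10, with none below the 25th percentile of values in any group. Of 7 granulocyte markers, 5 to 7 lay below that percentile in each group of the first table, and of 4 T cell markers 2 to 4. Of 4 B cell markers 0 to 2 did, with array means of 5.14 to 6.55. Arrays correlated with the others of their group at a mean r of 0.9206 to 0.9954 in the first table and 0.9946 to 0.9976 at passage 10. The lowest value belonged to clone 3 of the passage 16 Gra lines of mouse 2.

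Dppa2 and Dppa4 lie next to each other in the genome and encode DNA-binding proteins with a SAP domain that work as a pair. In mouse embryonic stem cells this pair binds CpG-rich promoters, keeps them free of DNA methylation and activates genes of the 2-cell embryo through Dux. Dppa3, also called Stella or PGC7, is a maternal and germ cell factor that keeps Uhrf1 away from chromatin and so limits the maintenance of DNA methylation. Its expression is known to vary from cell to cell in serum-grown embryonic stem cells. Dppa5a, also called Esg1, encodes an RNA-binding protein with a KH domain and is a common marker of the pluripotent state. The genome table of the mouse also lists Dppa5b, Dppa5c and Dppa3-ps, and whether these copies add to the signals of Dppa5a and Dppa3 is uncertain.

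**Figure D1:**
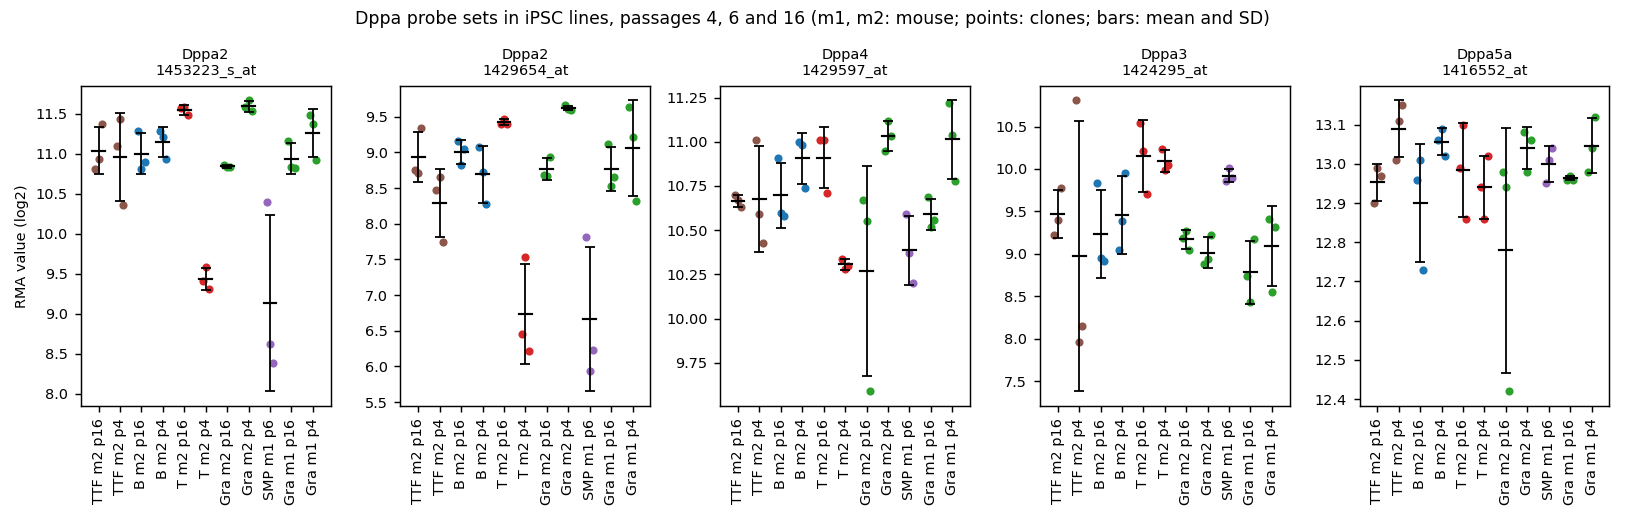
RMA values (log2, vertical axis) of the 5 Dppa probe sets on the 33 arrays of passages 4, 6 and 16, by group (horizontal axis; m1 and m2 are mouse 1 and mouse 2). Points are clones and bars are the mean and SD of 3 clones. Both Dppa2 probe sets are low in T cell-derived lines at passage 4 and in SMP lines at passage 6, 1 TTF clone stands far above the others for Dppa3, and clone 3 of the passage 16 Gra lines of mouse 2 is low for Dppa4 and Dppa5a.

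Dppa2 was low in T cell-derived lines at passage 4 and high in Gra lines of mouse 2 at the same passage. With 1429654_at, the T lines had log2 values of 6.46, 7.53 and 6.21, against a lowest, median and highest value of 7.75, 8.73 and 9.66 over the 9 clones of the other origins. With 1453223_s_at, the T lines had 9.41, 9.58 and 9.31, against 10.36, 11.29 and 11.67. All T clones lay below all clones of the other origins with both probe sets. The difference of T lines from the mean of the other 3 origins was -2.14 ± 0.30 on the log2 scale with 1429654_at (4.40-fold lower, limma adjusted p = 1.8e-05) and -1.80 ± 0.26 with 1453223_s_at (3.48-fold lower, 1.9e-05). In this comparison Dppa2 and Dppa4 were the 2 called genes of the 4, and 17.4% of all probe sets were called.

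The Gra lines of mouse 2 formed the upper end at passage 4. Their 1429654_at values were 9.66, 9.61 and 9.60, against 6.21, 8.27 and 9.07 as the lowest, median and highest of the other 9 clones. Their 1453223_s_at values were 11.58, 11.67 and 11.53, against 9.31, 10.94 and 11.43. These Gra clones lay above the other 9 clones with both probe sets and close to each other. The differences from the other origins were 1.72 ± 0.30 (limma adjusted p = 0.0002) and 1.08 ± 0.26 (0.0032), and Dppa2 was the 1 called gene of the 4 where 21.5% of all probe sets were called. The TTF lines (8.47, 8.66 and 7.75 with 1429654_at) and the B lines (9.07, 8.73 and 8.27) lay between and overlapped each other. Against the others, neither TTF nor B lines had a called Dppa gene, with 19.6% and 9.68% of all probe sets called. Gra lines of mouse 1 at passage 4 (9.64, 9.21 and 8.32 with 1429654_at) overlapped both the TTF and the B lines with both probe sets.

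The order of the 4 origins at passage 4 was T, TTF, B and Gra from low to high with both probe sets. Over all 4 origins the moderated F-test of limma gave adjusted p = 1.5e-05 and 4.1e-05 for Dppa2, with 38% of all probe sets called. T lines differed from each of the other origins with both probe sets, by -2.89 ± 0.37 and -2.16 ± 0.32 from Gra lines (limma adjusted p = 3.1e-06 and 1.4e-05, 25.3% of all probe sets called). B lines exceeded T lines by 1.96 ± 0.37 and 1.71 ± 0.32 (0.00075 and 0.00055, 14.7% called). The step next to it, TTF against T lines, was 1.56 ± 0.37 and 1.53 ± 0.32 (0.0065 and 0.002, 11.5% called), but with 1429654_at it was not called without TTF clone 2 (adjusted p = 0.051) or with only the groups of the comparison in the fit (0.06). TTF lines differed from Gra lines with 1429654_at (-1.33 ± 0.37, 0.01), not called without TTF clone 3 (0.063), and by -0.63 ± 0.32 with 1453223_s_at (0.15), with 24.3% called. The latter was called without SMP clone 1 (0.025), and the mean of both probe sets was called (0.029). TTF and B lines were not distinguished (-0.40 ± 0.37, adjusted p = 0.51, and -0.18 ± 0.32, 0.74), nor were B and Gra lines (-0.93 ± 0.37, 0.15, and -0.45 ± 0.32, 0.49), although the clones of B and Gra lines did not overlap. The backgrounds of these 2 pairs were 18.9% and 7.19%. With only the compared groups, B against Gra lines was called with both probe sets (0.017 and 0.041). Array quality weights called it with 1429654_at (0.028), where 30.6% of all probe sets were called.

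Fibroblast markers were also high in the T lines of passage 4. Of 18 measured markers of feeder or origin fibroblasts 10 were higher and none lower in T lines than in the other origins, where 17.4% of all probe sets were called. Their array means were 7.66 to 7.91 in T lines, 6.68 to 6.91 in TTF lines, 6.85 to 7.01 in B lines and 7.23 to 7.36 in Gra lines. In bulk RNA fewer expressing cells and less RNA per cell cannot be told apart, and the part of feeder or other fibroblast RNA in the Dppa2 difference was not tested. The mean of the 5 pluripotency markers was also lower on every T array (11.05 to 11.36) than on any TTF (11.39 to 11.49), B (11.57 to 11.62) or Gra array (11.54 to 11.63). By the test 1 of the 5 was lower and none higher, near the 17.4% over all probe sets, and the part of this list was not tested. Dppa5a differed by -0.12 ± 0.10 (limma adjusted p = 0.48) between the same T lines and the other origins.

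**Figure D2:**
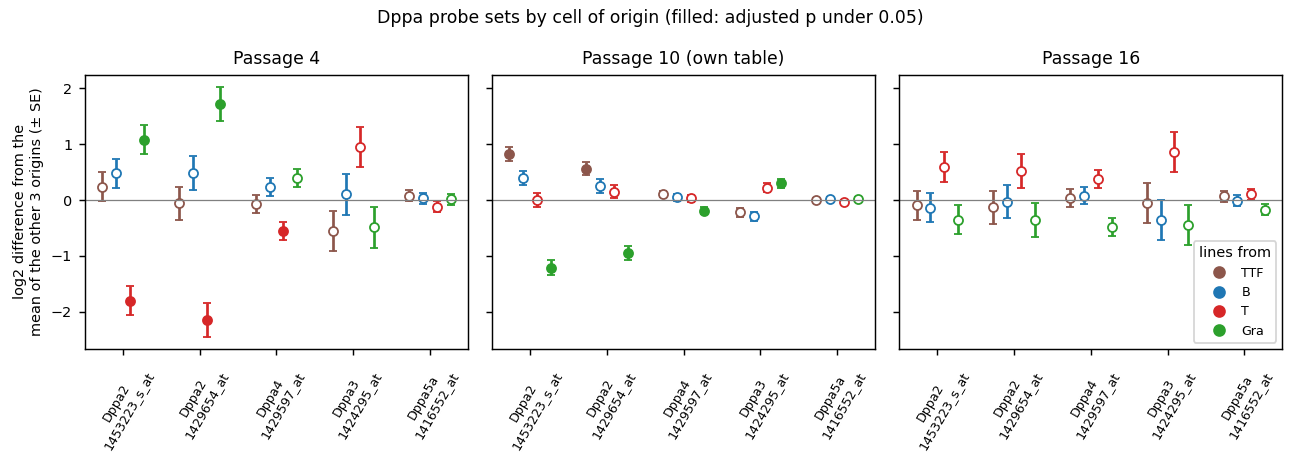
Difference of each origin's lines from the mean of the other 3 origins of mouse 2 (vertical axis, log2, bars are SE) for the 5 Dppa probe sets (horizontal axis) at passages 4, 10 and 16, with filled points where the adjusted p is under 0.05. Dppa2 is at -2.14 and -1.80 in T lines of passage 4, at -0.95 and -1.21 in Gra lines of passage 10, and no point is filled at passage 16.

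At passage 10, in the separate table, the Gra lines had the lowest Dppa2 values. With 1429654_at they had 10.49, 10.63 and 10.09, against 11.02, 11.44 and 11.60 as the lowest, median and highest of the other 9 clones. With 1453223_s_at they had 10.55, 10.98 and 10.37, against 11.23, 11.78 and 12.23. No Gra clone overlapped another clone, and the differences were -0.95 ± 0.12 (limma adjusted p = 0.00018) and -1.21 ± 0.13 (8.6e-05). Dppa2, Dppa3 and Dppa4 were called, 3 of the 4 genes, where 31.8% of all probe sets were called. The TTF lines were higher than the others by 0.56 ± 0.12 (0.018) and 0.82 ± 0.13 (0.0069), which made Dppa2 the 1 called gene of the 4 at a background of 10.4%. Without TTF clone 2 these calls were lost (adjusted p = 0.1 and 0.054), and without TTF clone 1 that of 1429654_at (0.072). T lines, low at passage 4, differed from the others by 0.15 ± 0.12 (0.58) with 1429654_at at passage 10.

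Gra lines of mouse 2 were thus above the other origins at passage 4 and below them at passage 10, in tables of different platforms. The difference between these 2 results was not tested. Fibroblast markers went with Dppa2 at passage 10 and not against it: of 20 measured, 17 were lower and none higher in Gra lines, against 31.8% of all probe sets called. Their array means were 8.14 to 8.21 in Gra lines, 9.30 to 9.46 in TTF lines, 8.62 to 8.88 in B lines and 8.57 to 9.06 in T lines. In TTF lines, where Dppa2 was higher, 17 of the 20 markers were higher and none lower, against 10.4% of all probe sets called. The part of these markers' cells in the Dppa2 values was not tested.

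**Figure D3:**
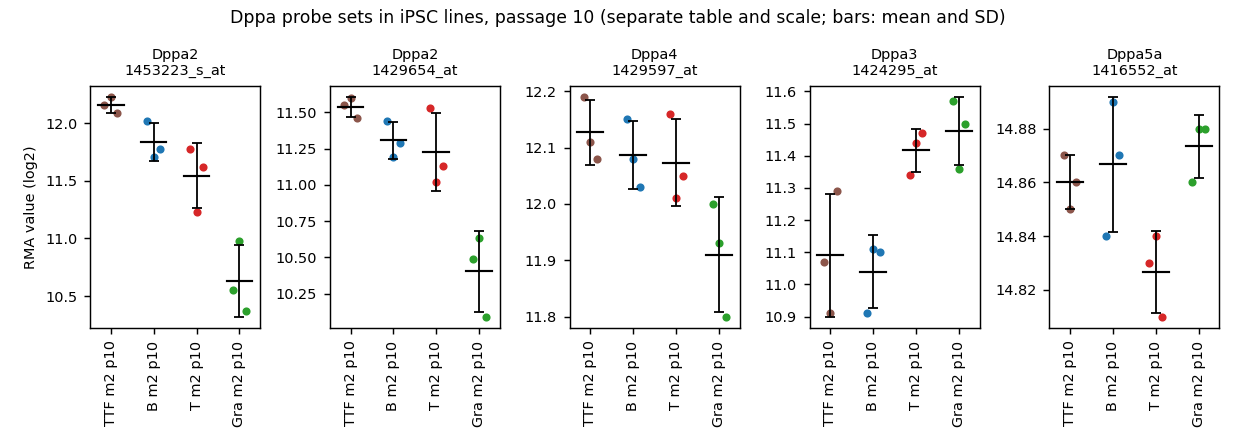
RMA values (log2, vertical axis) of the 5 Dppa probe sets on the 12 arrays of passage 10, by origin (horizontal axis; all lines are from mouse 2). Points are clones and bars are the mean and SD of 3 clones. The Gra clones lie below all others for Dppa2 and Dppa4, and Dppa5a stays within 14.81 and 14.89.

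At passage 16 none of the 4 genes was called among the origins in the fit as reported. The moderated F-test of limma gave adjusted p = 0.54 and 0.37 for Dppa2, 0.33 for Dppa3, 0.19 for Dppa4 and 0.55 for Dppa5a, with 1.35% of all probe sets called. Dppa4 in Gra lines was called with the clone number as a block (-0.49 ± 0.13, limma adjusted p = 0.038) and without T clone 3 (0.041). It was also called without Gra clone 1 (-0.69 ± 0.18, 0.017) or clone 2 (-0.63 ± 0.18, 0.014), which leaves clone 3 more weight. Without Gra clone 2, 32.2% of all probe sets were called, against 2.49% with it. The T lines had Dppa2 values of 9.40, 9.47 and 9.40 with 1429654_at, against 8.67 to 9.34 over the other 9 clones. They lay above all other clones, as they did with 1453223_s_at (11.57, 11.59 and 11.48, against 10.81 to 11.37), but the differences of 0.52 ± 0.30 (0.46) and 0.59 ± 0.26 (0.27) did not pass the test, with 2.27% of all probe sets called.

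With passage, Dppa2 rose in the T lines. With 1429654_at they had 9.40, 9.47 and 9.40 at passage 16, against 6.46, 7.53 and 6.21 at passage 4. The values of the passages did not overlap with either probe set, and the differences were 2.69 ± 0.37 (6.44-fold, limma adjusted p = 2.3e-05) and 2.11 ± 0.32 (4.32-fold, 5.3e-05). Dppa2 and Dppa4 were the 2 called genes of the 4, with 16.7% of all probe sets called. The same T arrays of passage 4 stand in the comparison of the origins, so the 2 results share them. Of the 18 fibroblast markers 8 were lower and none higher at passage 16, and their array means in T lines were 6.76 to 7.09 at passage 16 and 7.66 to 7.91 at passage 4. Their part in the change was not tested.

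In the other origins of mouse 2 Dppa2 was not called in the fit without a block. Gra lines had 8.68, 8.67 and 8.94 with 1429654_at at passage 16, against 9.66, 9.61 and 9.60 at passage 4, and 10.86, 10.83 and 10.84 against 11.58, 11.67 and 11.53 with 1453223_s_at. All clones of passage 16 lay below all clones of passage 4, and the differences were -0.86 ± 0.37 (limma adjusted p = 0.072) and -0.75 ± 0.32 (0.063). With the line as a replicate block both were called (-0.86 ± 0.29, adjusted p = 0.04, and -0.75 ± 0.22, 0.02). That fit pairs clone numbers in every origin, so its spread also rests on T, B and TTF lines, where clone numbers were not taken as pairs. In the fit without a block, SMP clone 1 enters the shared spread only. Without it the SE of the 2 differences fell to 0.30 and 0.20 and both were called (0.033 and 0.0069), and without SMP clone 3 the second was (0.045). TTF lines differed by 0.64 ± 0.37 (0.33) and 0.07 ± 0.32 (0.94) and B lines by 0.31 ± 0.37 (0.7) and -0.14 ± 0.32 (0.86), where 10.3% and 9% of all probe sets were called.

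The change with passage differed between the origins. The test of that difference, a moderated F-test in limma, gave adjusted p = 0.00018 with each Dppa2 probe set and 0.0041 for Dppa4, so that 2 of the 4 genes were called where 31.6% of all probe sets were. The change in T lines exceeded the mean change of the other 3 origins by 2.66 ± 0.43 and 2.39 ± 0.36 for Dppa2 (adjusted p = 0.00011 and 5.4e-05), and 15% of all probe sets were called. The change in Gra lines minus that of the others was -2.07 ± 0.43 and -1.43 ± 0.36 (0.0014 and 0.0064), with 22.5% called. Averaged over the 4 origins, Dppa2 was higher at passage 16 by 0.70 ± 0.19 with 1429654_at (0.0065) and by 0.32 ± 0.16 with 1453223_s_at (0.12), where 29.4% of all probe sets were called and Dppa2 was the 1 called gene of the 4. That average joins changes that differ between origins.

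**Figure D4:**
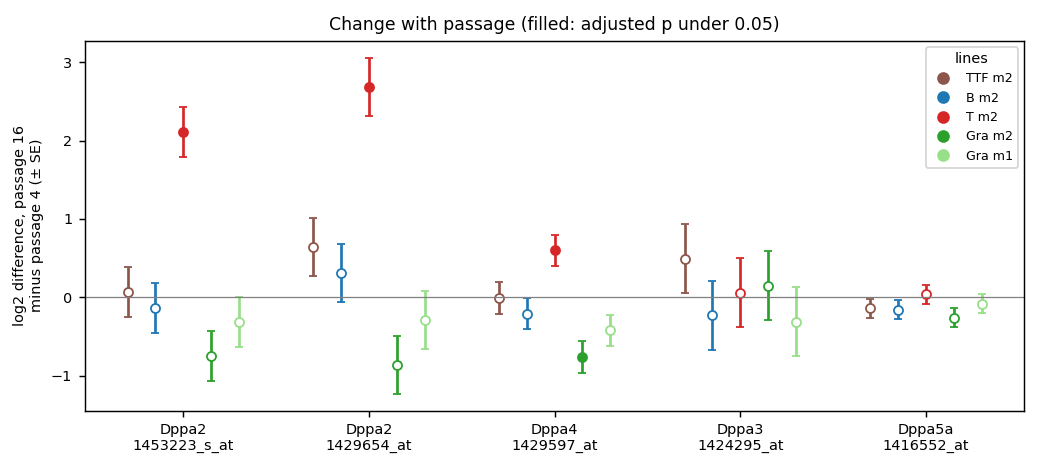
Log2 difference of passage 16 minus passage 4 (vertical axis, bars are SE) for the 5 Dppa probe sets (horizontal axis) in lines of each origin and mouse, with filled points where the adjusted p is under 0.05. Dppa2 and Dppa4 are higher at passage 16 in T lines, and Dppa4 is lower in Gra lines of mouse 2.

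In mouse 1, Dppa2 was low in SMP lines. With 1429654_at the SMP lines of passage 6 had 7.82, 5.94 and 6.23, against 9.64, 9.21 and 8.32 in Gra lines of passage 4 and 9.11, 8.53 and 8.66 in Gra lines of passage 16. With 1453223_s_at they had 10.40, 8.62 and 8.38, against 11.49, 11.37 and 10.92 at passage 4 and 11.16, 10.83 and 10.82 at passage 16. All SMP clones lay below all Gra clones, and SMP clone 1 stood apart from the other 2. The difference from Gra lines of passage 4 was -2.39 ± 0.37 (5.26-fold lower, limma adjusted p = 4.6e-05) and -2.13 ± 0.32 (4.37-fold lower, 2.6e-05). From Gra lines of passage 16 it was -2.11 ± 0.37 (0.00042) and -1.81 ± 0.32 (0.00037). The comparisons share the SMP arrays. They called 2 of the 4 genes at a background of 20.6% and 1 at a background of 12.9%, and origin and passage cannot be told apart in either.

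Fibroblast markers were also high in the SMP lines. Of the 18, 8 were higher and none lower in SMP lines than in Gra lines of passage 4, where 20.6% of all probe sets were called. Their array means were 7.73 to 7.92 in SMP lines and 6.84 to 7.56 in the Gra lines. The 5 pluripotency markers averaged 11.27 to 11.39 in SMP lines and 11.50 to 11.58 in these Gra lines, with none called. The part of either list was not tested. Gra lines of mouse 1 had marker means of 7.44 to 7.98 at passage 16, which overlapped those of the SMP lines, and their Dppa2 values were above those of all SMP clones. In these Gra lines Dppa2 differed by -0.29 ± 0.37 and -0.32 ± 0.32 between passages 16 and 4 (limma adjusted p = 0.95 and 0.88), and none of the 4 genes was called where 0.888% of all probe sets were. Gra lines of mouse 2 differed from those of mouse 1 at passage 4 by 0.57 ± 0.37 and 0.34 ± 0.32 (0.46 and 0.65), and at passage 16 no Dppa gene was called either, with backgrounds of 6.49% and 18%. The second was 0% with only the compared groups or without clone 1 of mouse 1, and 44.1% without clone 2 of mouse 2.

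Dppa4, the partner of Dppa2, was lower in the same 2 sets of lines, by smaller log2 differences. At passage 4 the T lines had 10.34, 10.28 and 10.30, against 10.43, 10.98 and 11.12 as the lowest, median and highest of the other 9 clones. All T clones lay below the others, by -0.56 ± 0.16 on average (limma adjusted p = 0.014), but the call was lost without T clone 2 (0.063) or clone 3 (0.055). In mouse 1 the SMP lines had 10.59, 10.37 and 10.20, against 11.22, 11.04 and 10.78 in Gra lines of passage 4, a difference of -0.63 ± 0.20 (0.022). The call was lost without Gra clone 1 (0.12) or clone 2 (0.066) and without SMP clone 2 (0.068) or clone 3 (0.12), and against Gra lines of passage 16 the difference was -0.21 ± 0.20 (0.61).

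At passage 10 Dppa4 was lower in Gra lines. Clones 2 and 3 had 11.93 and 11.80 and clone 1 lay just under 12.01, the lowest of the other 9 clones, which reached 12.19. The groups did not overlap. The difference was -0.19 ± 0.06 (limma adjusted p = 0.029), and it was not called without Gra clone 2 (0.066) or clone 3 (0.18). The F-test over the 4 origins was not past the threshold (0.12).

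With passage, Dppa4 rose in T lines and fell in Gra lines of mouse 2. T lines had 11.01, 11.01 and 10.71 at passage 16, against 10.34, 10.28 and 10.30 at passage 4 (0.60 ± 0.20, limma adjusted p = 0.034). Without any 1 of the T arrays other than passage 16 clone 3, the call was lost (adjusted p from 0.07 to 0.1). Gra lines had 10.67, 10.55 and 9.59 at passage 16, against 10.95, 11.12 and 11.03 at passage 4 (-0.76 ± 0.20, 0.0046), and Dppa4 was the 1 called gene of the 4 where 34.6% of all probe sets were called.

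With only the compared groups in the fit the Dppa4 difference was not called (SE 0.31, limma adjusted p = 0.19), while 3.47% of all probe sets were.

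Clone 3 carried much of that last difference. Without this array, the one of lowest correlation with its group, the difference was -0.42 ± 0.16 (limma adjusted p = 0.061). On the same arrays the 5 pluripotency markers averaged 10.48 to 11.27 at passage 16 and 11.54 to 11.63 at passage 4. The 16 measured endoderm markers averaged 7.03 to 8.07 at passage 16 and 6.45 to 6.63 at passage 4. Of these 7 were higher and none lower, where 34.6% of all probe sets were called, and the part of differentiated cells was not tested. The T lines exceeded the other origins in their Dppa4 change by 0.93 ± 0.23 (0.0052), and the Gra lines differed by -0.89 ± 0.23 (0.0064). In Gra lines of mouse 1 Dppa4 was 10.69, 10.52 and 10.56 at passage 16, against 11.22, 11.04 and 10.78 at passage 4. These values did not overlap, but Dppa4 was not called there in the fit as reported. Array quality weights called it (-0.39 ± 0.10, limma adjusted p = 0.0041), with 20% of all probe sets called.

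The Dppa3 calls of passage 4 depended on 1 TTF clone and on the weighting of the arrays. At passage 4 the TTF lines had 10.81, 7.96 and 8.15, a range wider than that of any other group, and the T lines had 10.24, 9.99 and 10.05. The B lines had 9.04, 9.39 and 9.95 and the Gra lines 8.88, 8.94 and 9.22. TTF clone 1 was the highest of the 12 clones and TTF clones 2 and 3 the lowest, and the F-test over the origins gave limma adjusted p = 0.12.

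Without TTF clone 1 the F-test gave limma adjusted p = 6.1e-05. TTF lines then differed from the others by -1.47 ± 0.25 (0.00025), against -0.55 ± 0.36 (0.31) with it. T lines then differed by 1.25 ± 0.22 (0.00021), against 0.95 ± 0.36 (0.07) with it. The change of Dppa3 with passage in TTF lines was 1.41 ± 0.29 (0.0021) without that clone and 0.49 ± 0.44 (0.58) with it, and the test of passage by origin gave 0.011 and 0.77. At passage 16 the T lines had 10.54, 10.21 and 9.70 and overlapped the other origins (0.86 ± 0.36, 0.24, and 0.027 without TTF clone 1), and their difference between the passages was 0.06 ± 0.44 (0.95). SMP lines had 9.86, 10.01 and 9.89, above every Gra clone of mouse 1 (9.41, 8.55 and 9.32 at passage 4 and 8.74, 8.43 and 9.17 at passage 16), by 0.83 ± 0.44 (0.21) and 1.14 ± 0.44 (0.09). The lines low in Dppa2, T at passage 4 and SMP, were thus high in Dppa3, but these Dppa3 differences did not pass the test in the fit as reported. Array quality weights, with all arrays kept, called T lines at passage 4 (0.90 ± 0.30, limma adjusted p = 0.023) and both SMP differences (0.0018 and 0.00061). With only the compared groups the SMP differences were called too (0.018 and 0.0031). Without TTF clone 1, which enters the spread of the SMP comparisons only, the SMP differences were called (0.025 and 0.0041).

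At passage 10 Dppa3 differed among the origins (limma adjusted p = 0.011). Both Dppa2 and Dppa3, 2 of the 4 genes, were called in this F-test, where 25.7% of all probe sets were. Gra lines had 11.57, 11.36 and 11.50 and T lines 11.34, 11.44 and 11.47, against 11.07, 10.91 and 11.29 in TTF lines and 10.91, 11.11 and 11.10 in B lines. Gra lines were higher than the mean of the others by 0.30 ± 0.08 (0.015), and the call was lost without Gra clone 1 (0.073) or clone 3 (0.066). The difference of B from Gra lines was -0.44 ± 0.10 (0.0087, 22.5% of all probe sets called), and T and Gra lines were not distinguished (-0.06 ± 0.10, 0.73, 22.3% called).

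Dppa5a was level across the lines. Its group means ran from 12.78 to 13.09 in the first table and from 14.83 to 14.87 at passage 10, and the SD within groups was 0.01 to 0.31 and 0.01 to 0.03. The moderated F-test of limma over the origins gave adjusted p = 0.75 at passage 4, 0.87 at passage 10 and 0.55 at passage 16, and no Dppa5a contrast was called in the fit to the values as deposited. After cyclic loess normalization Dppa5a was called over the 4 origins, at -0.13 ± 0.05 for passage 16 against 4 (adjusted p = 0.038). The lowest value, 12.42, was on the passage 16 array of Gra clone 3 of mouse 2, whose fellow clones had 12.98 and 12.94. The passage difference in these Gra lines, -0.26 ± 0.12 (0.089), was called without clone 1 (-0.36 ± 0.13, 0.029) or clone 2 (-0.34 ± 0.13, 0.035) of passage 16, which leaves clone 3 more weight. The probe set lay between the 98.8th and 99.6th percentile of its array in the first table and between the 99.8th and 99.9th at passage 10, and whether the scale is compressed there was not tested.

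Over the 5 probe sets together, the median difference of T lines from the other origins at passage 4 was -0.56, against 0.00 over all 22626 probe sets. The medians were 0.40 against -0.02 for Gra lines at passage 4, -0.19 against -0.02 for Gra lines at passage 10, and -0.63 against 0.04 for SMP lines against Gra lines of passage 4. For passage 16 against 4 they were 0.60 against 0.05 in T lines and -0.75 against 0.16 in Gra lines of mouse 2. Dppa2 entered these medians with both of its probe sets. Dppa3 had the opposite sign to the median in T lines at passage 4, SMP lines and Gra lines at passage 10, as given above. The medians thus do not describe a shift shared by all members.

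Other genes of the pluripotency network were set beside the members. Of 18 measured, 1 was higher and 3 lower in T lines at passage 4, among them Klf2, a factor of the ground state (0.78 ± 0.18, limma adjusted p = 0.0035), Gdf3, a TGF-beta family ligand (-0.75 ± 0.24, 0.029), and Zfp42, known as Rex1 (-0.72 ± 0.23, 0.029). In SMP lines against Gra lines of passage 4, 5 were lower and none higher, with Gdf3 at -1.46 ± 0.29 (0.00062). Both counts lie near the shares of all probe sets called, 17.4% and 20.6%. In Gra lines at passage 4, 6 were higher and none lower, led by the RNA-binding protein gene Lin28a (1.28 ± 0.39, 0.018), against 21.5% of all probe sets called. At passage 10, 4 of 19 were higher and 6 lower in Gra lines, against 31.8% of all probe sets called, where Dppa2 differed by -0.95 and -1.21.

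Genes of the 2-cell embryo, which the Dppa2 and Dppa4 pair is known to activate, were examined in the same comparisons. Of 6 measured among 24 listed, 1 was called in T lines at passage 4, near the share of 17.4% over all probe sets. It was Usp17la, a deubiquitinase gene (-2.98 ± 0.35, limma adjusted p = 1.9e-06). In SMP lines 5 of the 6 were lower and none higher than in Gra lines of passage 4, where 20.6% of all probe sets were called, with Usp17la at -3.33 ± 0.43 (5.1e-06), Tcstv1 at -2.42 ± 0.46 (0.00037) and Zfp352 at -1.69 ± 0.42 (0.0048), and against Gra lines of passage 16 1 of the 6 was lower, near the 12.9% over all probe sets. At passage 10, 2 of 5 were lower in Gra lines, against 31.8% of all probe sets called, Usp17la (-0.72 ± 0.11, 0.00062) and Tcstv1 (-0.48 ± 0.09, 0.0023).

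With passage in T lines, where Dppa2 rose, 2 of the 6 were higher and none lower, against 16.7% of all probe sets called, Usp17la by 3.46 ± 0.43 (limma adjusted p = 7e-06) and Tcstv1 by 1.51 ± 0.46 (0.023). The Gra lines of passage 4 went the other way. Their Dppa2 was the highest of the 4 origins, while 4 of the 6 genes were lower, with Usp17la at -1.20 ± 0.35 (0.016) and 21.5% of all probe sets called. In TTF lines of passage 4 Dppa2 differed by -0.06 ± 0.30 (0.93) and Usp17la by 2.98 ± 0.35 (2.6e-06), with 4 of the 6 genes higher and none lower and 19.6% of all probe sets called. Usp17la belongs to a family of near-identical copies, so its signal may come from several of them.

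Of 13 measured germline genes, 1 was lower in T lines at passage 4, Stk31, a germ cell kinase gene (-0.58 ± 0.19, limma adjusted p = 0.037), and 3 were higher in SMP lines, led by Taf7l, a germ cell transcription factor (2.31 ± 0.29, 3.1e-06). The shares over all probe sets were 17.4% and 20.6%, so neither count stood apart from the background. Dppa3 bears on the DNA methylation machinery, of which 5 genes were measured in the first table. The maintenance methyltransferase gene Dnmt1 was the 1 called in T lines at passage 4 (0.31 ± 0.10, 0.037). It was also higher in SMP lines against Gra lines of passage 4 (0.69 ± 0.13, 0.00029), where the de novo methyltransferase genes Dnmt3b (-1.38 ± 0.33, 0.0035) and Dnmt3a (-1.13 ± 0.35, 0.022) were lower. Of 3 measured genes of the oocyte KH-domain family and its partners, to which Dppa5a is related, none was called in T lines at passage 4 or in SMP lines against Gra lines of passage 4.

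**Figure D5:**
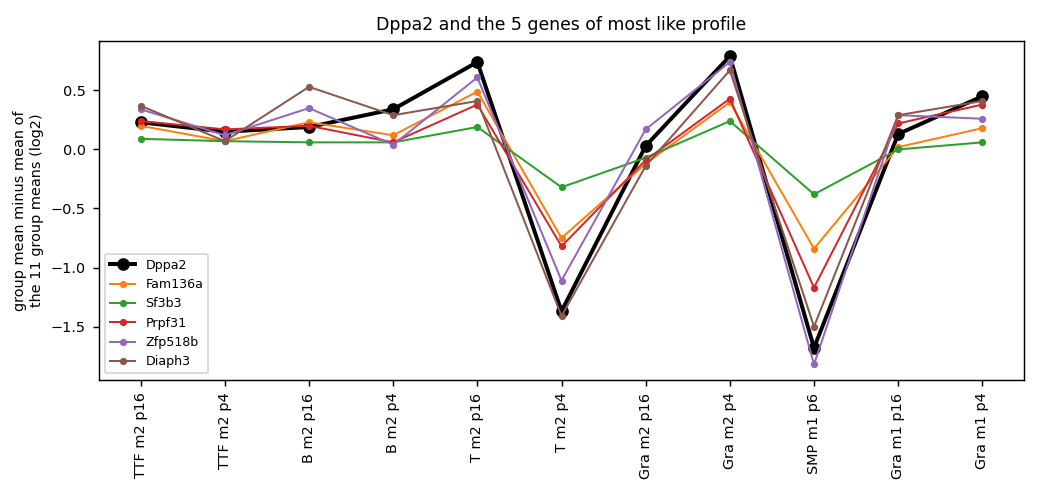
Group mean minus the mean of the 11 group means (log2, vertical axis) of Dppa2 (1453223_s_at, thick black line) and of the 5 genes with the highest correlation to it, over the 11 groups of passages 4, 6 and 16 (horizontal axis). All 6 genes dip in T lines of passage 4 and SMP lines of passage 6.

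Among the members, Dppa2 and Dppa4 had the most alike profiles, with Pearson's r of 0.76 over the 11 group means of the first table and 0.87 over the 12 arrays of passage 10. Dppa2 and Dppa3 had negative r, -0.50 and -0.79, but did not run opposite in every group. At passage 16 the T lines had the highest mean of the origins for both, 11.54 for Dppa2 (1453223_s_at) and 10.15 for Dppa3. The r values describe groups that share a table and arrays. The 5 genes closest to Dppa2 over the 11 group means were Fam136a, Sf3b3, Prpf31, Zfp518b and Diaph3, with r from 0.97 to 0.98. At passage 10 their r with Dppa2 was 0.94, 0.54, 0.92, 0.84 and 0.42 in that order. Zfp518b, a zinc finger gene, spanned 2.56 over its group means and Prpf31, a splicing factor gene, 1.60, against 2.46 for Dppa2 itself.

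The gene closest to Dppa5a was Nanog, a core pluripotency factor, with r of 0.96 over the 11 group means but 0.05 over the arrays of passage 10, where Dppa5a spanned 0.05 in its group means. Hspe1, Fbxw2, Qpct and Brd1 followed, with r from 0.92 to 0.94, and from -0.23 to 0.36 at passage 10. For Dppa4 the closest were Uxt, Lcp1, Zfp955b, Lancl2 and Smap2, each with r of 0.94. At passage 10 their r was 0.07, 0.23, 0.51, 0.77 and 0.89 in that order. For Dppa3 they were Fgg, Rcan3, Lamp5, Ncmap and Pdlim4, with r from 0.85 to 0.88. At passage 10 their r was 0.00, 0.75, -0.13, 0.62 and 0.83 in that order. Lamp5 was dim, with group means of 2.80 to 3.02 in the first table.

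The genes beside the members were examined in the same comparisons. The 3 nearest measured genes on each side of the Dppa4 and Dppa2 pair were Phldb2, Cd96 and Nectin3, and Morc1, Trat1 and Retnlb. None of these 6 was called in T lines at passage 4, and in SMP lines against Gra lines of passage 4 Phldb2 was called (-1.17 ± 0.30, limma adjusted p = 0.0057). Morc1, a germline gene for transposon silencing, was lower in Gra lines at passage 10 (-0.31 ± 0.07, 0.0062), as Dppa2 was. Beside Dppa3 lie Mfap5, Apobec1 and Gdf3 on one side and Nanog, Slc2a3 and Foxj2 on the other. Apobec1, a cytidine deaminase gene, was higher in T lines at passage 4 (1.00 ± 0.25, 0.005) and in SMP lines (1.11 ± 0.30, 0.0087), while Gdf3 was lower in both, as given above. Mfap5 (0.76 ± 0.24, 0.026) and Foxj2 (0.85 ± 0.26, 0.02) were called in SMP lines only, Nanog and Slc2a3 in neither. Beside Dppa5a lie Omt2a, Omt2b and Gsta2, and Mto1, Eef1a1 and Cd109. Of these Cd109 alone was called in SMP lines (1.38 ± 0.27, 0.00056), and none in T lines at passage 4. The background in SMP lines was 20.6%.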

How the data were processed

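The deposited files are 2 tables, of 33 and 12 arrays, whose values the authors put on a log2 scale by RMA, per the submitters' processing notes (version not given in the sources used here). Of 22690 probe sets, 64 control probe sets were left out of each table. Genes were named from the platforms' probe tables, which can be old (18003 and 20380 probe sets with 1 symbol, 287 and 691 with several, 4336 and 1555 with none). Gene order came from a RefSeq table of GRCm38.p6. The fits used limma 3.58.1 under R 4.3.3, separately by table (lmFit, eBayes; 1 mean per group, spread shared over the table), after a test on simulated data, and Python 3.11.15, pandas 2.3.3, numpy 2.4.6 and matplotlib 3.10.9 made summaries and figures. In gene lists a gene was represented by its brightest probe set on average, with the adjusted p of the fit over all probe sets. Named beside the members were the 5 genes of highest r to each member, the 3 nearest measured genes on each side, and up to 3 called genes of a list by size of change. Alternatives covered quantile and cyclic loess normalization, a filter on values under the 25th percentile, 1 probe set or the mean of probe sets per gene, only the compared groups, array quality weights, the clone number as a block, and leaving out each array. Clone numbers were taken to pair passages where every pair of a line's deviations correlated over 0.1, which held for Gra lines of mouse 2 (0.199 to 0.311) and mouse 1 (0.169 to 0.384) and for no other origin; reading this check by origin was chosen after the calls of both fits were seen. The contrasts of an origin's passage change with the other origins were added after seeing the data. The members and gene lists were chosen with earlier results of these data known. The labels give no batch or date, and the number of arrays limits the precision.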

Additional observations from a re-analysis of the deposited data

Results flagged for a closer look

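The Dppa2 and Dppa4 changes from passage 4 to passage 16 differed between the 4 origins of mouse 2 by the test of that difference. The moderated F-test of limma gave adjusted p = 0.00018 with 1429654_at, 0.00018 with 1453223_s_at and 0.0041 for Dppa4. The change in T lines minus the mean change of the other origins was 2.66 and 2.39 on the log2 scale for Dppa2 and 0.93 for Dppa4. The change in Gra lines minus that of the other origins was -2.07 and -1.43 for Dppa2 and -0.89 for Dppa4. The contrasts share arrays, since each origin is among the others of the next. No call among these 9 results was lost under any alternative run.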

How the results depend on the processing

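Over 8841 values of the Dppa probe sets under the alternatives, 37 lost their call, 69 gained one, 161 uncalled values changed sign or moved, and 0 called values turned direction. The Dppa2 calls in T lines at passage 4, in SMP lines, in Gra lines at passages 4 and 10 and with passage in T lines held under every alternative, and the causes of the changes below were not tested. Counts are of the 4 genes called, with the count of the fit as reported in brackets. A count over pairs adds up the genes called in each pair of origins, so it can exceed 4. Array quality weights gave 2 for B lines at passage 4 (0), 3 for Gra lines at passage 4 (1), 1 for T lines at passage 16 (0), 2 for TTF lines at passage 10 (1), 1 over pairs at passage 16 (0), 3 for SMP against Gra lines of passage 16 (1), and for passage 1 in Gra lines of mouse 1 (0) and 2 in those of mouse 2 (1). The weights raised the share of all probe sets called as well, to 31.6% for B lines (9.68%) and 43.5% for Gra lines at passage 4 (21.5%), 43.9% for SMP against Gra lines of passage 16 (12.9%), 20% for passage in Gra lines of mouse 1 (0.888%), 7.81% for T lines at passage 16 (2.27%), 16.2% for TTF lines at passage 10 (10.4%) and 29.6% for Gra lines of mouse 2 against mouse 1 at passage 4 (6.49%). Under the weights Dppa3 was also called over origins (limma adjusted p = 0.026) and in T lines (0.023) at passage 4, and in SMP against Gra lines of passage 4 (0.0018). The shares of all probe sets there were 59.2%, 29.2% and 47.6%. With only the compared groups, Dppa4 lost and Dppa2 gained a call for passage in Gra lines of mouse 2 (adjusted p = 0.19 and 0.049), and Gra lines at passage 4 gave 2 (1) and SMP against Gra lines of passage 16 gave 2 (1). That fit also called Dppa3 in SMP against Gra lines of passage 4 (0.018). Smaller changes of a count are not all listed. Cyclic loess gave 1 over pairs at passage 16 (0) and 2 for passage over the 4 origins (1), where 1 probe set per gene gave 0.

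Outside the Gra lines clone numbers were not taken as pairs: deviations of the 15 lines correlated between passages 4 and 16 at a median of 0.16 (lowest -0.317, highest 0.41), and 8 lines matched themselves best. With the clone number as a block, Gra lines gave 2 at passage 4 (1) and 1 at passage 16 (0), and pairs at passage 16 gave 1 (0). The fit with the line as a block pairs clone numbers in every origin. With it, passage gave 1 in T lines (2), where Dppa4 had adjusted p = 0.052, and 2 in Gra lines of mouse 2 (1), and it changed no call in Gra lines of mouse 1.

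Leaving out each array gave 1 to 3 over origins at passage 4 (2), 5 to 10 over pairs (6), 1 to 3 for T lines (2), 1 to 2 for Gra lines (1) and 0 to 1 for TTF lines (0) there. It gave 1 to 3 for Gra lines (3), 0 to 2 for TTF lines (1) and 4 to 7 over pairs (6) at passage 10, and 0 to 1 for Gra lines, T lines and pairs (0) at passage 16. It gave 1 to 3 and 1 to 2 for SMP against Gra lines of passages 4 (2) and 16 (1), and for passage 1 to 2 in T lines (2), 0 to 2 in Gra lines of mouse 2 (1), 0 to 1 in TTF lines (0) and 1 to 2 over the 4 origins (1). The background moved too: without Gra clone 3 of passage 16 it was 19.6% for passage in Gra lines (34.6%), without Gra clone 2 it was 16.4% for origins at passage 16 (1.35%), and with only the compared groups it was 3.47% for passage in Gra lines. It was 11% for T lines at passage 4 without T clone 2 (17.4%), 12.6% for Gra lines without Gra clone 1 (21.5%), 13.1% for SMP lines without SMP clone 3 (20.6%), and at passage 10 13.9% over origins without Gra clone 3 (25.7%) and 0.694% for TTF lines without TTF clone 2 (10.4%). Calls of all probe sets added up over pairs were 18528 to 32795 at passage 4 (23060) and 10875 to 17190 at passage 10 (17147). At passage 16 they were 418 to 14274 (1022).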
